A study of Mus musculus with 2 samples.

Results

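The cells described here are fibroblast-like progenitors of mouse subcutaneous fat that carried high levels of Il6, Procr, Thbd and Adamts4. They numbered 426 among 2483 Pdgfra-positive progenitors and 2854 cells in all. A progenitor was a barcode with at least 1000 unique molecular identifiers (UMIs, one per captured RNA molecule), 500 genes, at most 10% mitochondrial UMIs and at least 1 UMI of Pdgfra, the platelet-derived growth factor receptor that marks stromal progenitors. In each such cell, 6 scores were taken, each the mean over 4 genes of the standardised log of UMIs per 10000. A cell belonged here if the Il6, Procr, Thbd and Adamts4 score was the highest of the 6 and reached 0.5. The cells were therefore selected on measured levels of these genes, so their levels against other progenitors are a description. They are called Il6/Procr/Thbd cells below, and the other 2057 progenitors serve as the comparison.

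The data are droplet 3′ single-cell RNA counts from the CD45-negative stromal vascular fraction of white fat. This is the non-adipocyte part left after collagenase digestion, sorted by flow cytometry to remove cells with the leukocyte protein CD45. There were 2 libraries, 1 from WT mice and 1 from Paqr4 transgenic mice. Paqr4 encodes a membrane protein of the adiponectin receptor family. The labels give neither age, strain nor the promoter that drives the transgene, and the series text says that cells of 3 mice were pooled without saying whether in each library. With 1 library per genotype nothing was tested between genotypes. The RNA also showed that the libraries differed in sex: 93.7% of the WT Il6/Procr/Thbd cells had a UMI of Xist and 95.1% of the transgenic ones had a UMI of a Y-linked gene, so genotype and sex cannot be told apart. No barcode was shared between the libraries. Where a pair of values is given, the first is WT and the second transgenic, and a pair after "against" is that of the other progenitors unless another group is named. All intervals below are 95% and cover counting error only, not variation between mice.

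Il6 encodes interleukin-6, a secreted cytokine whose receptors signal through the transducer gp130, JAK kinases and STAT3. Thrombomodulin (Thbd) and the endothelial protein C receptor (Procr) are best known from vessel walls, where they turn thrombin towards activating the anticoagulant protein C. Adamts4 is a secreted protease that cuts aggrecan and versican, large proteoglycans of the matrix. Fibroblasts of many tissues release IL-6 and chemokines when NF-kB is active, and progenitors of fat include a pool marked by Dpp4 and Pi16 and a pool closer to adipocytes.

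Il6/Procr/Thbd cells made up 221 of 1136 WT progenitors, or 19.5% (exact Clopper-Pearson interval 17.2 to 21.9%), and 205 of 1347 transgenic progenitors, or 15.2% (13.3 to 17.2%). The WT library held the higher share, and the intervals overlap narrowly. A share of sorted cells can also move with digestion and sorting, which was not tested. Median depth was 23217 UMIs per Il6/Procr/Thbd cell against 22699 per other progenitor in WT, and 20981 against 19406.5 in the transgenic library. Scrublet called 0 and 1 of these cells doublets. The score ran from 0.52 to 3.07 in WT, with a median of 1.07, and from 0.51 to 3.09 in the transgenic library, with a median of 1.10. There were 17 WT and 20 transgenic cells below 0.6. A further 15 and 8 progenitors had this score as their highest but between 0.4 and 0.5. Levels are given in UPM, the UMIs of a gene per 1000000 summed UMIs of a class. In the cells just inside the threshold, Adamts4 stood at 1346 and 1417 UPM, against 1019 and 1157 UPM in those just outside. Thbd stood at 705 and 753 UPM inside and at 348 and 429 UPM outside, and Procr at 84.7 and 48.1 UPM inside and 65.4 and 36.6 UPM outside. Il6 went the other way, with 542 and 428 UPM inside and 588 and 612 UPM outside. Another 53 WT and 45 transgenic progenitors reached 0.5 but had a higher score of another kind and were left out.

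Il6 (GRCm38 chr5:30013114-30019981, plus strand) averaged 1208 and 1211 UPM over the selected cells, which were chosen by 1 threshold for both libraries. The other progenitors held 200.1 UPM (Poisson interval 194.1 to 206.2) and 143 UPM (138 to 148), so the level was 6.04-fold and 8.46-fold higher in the selected cells. These cells gave 60.1% and 62.0% of all Il6 UMIs of the progenitors. The level varied widely among them: the median was 7.93 UMIs per 10000 in WT, 90% of cells lay below 32.7, and the highest cell reached 80.5. A UMI of Il6 was found in 90.5% and 90.7% of them, against 38.8% and 32.9% of other progenitors and 4.90% and 2.38% of the 102 and 84 endothelial cells, which were shallower with medians of 9868.5 and 7591 UMIs. After thinning every cell to 5000 UMIs the shares were 82.7% and 79.8% in the 214 and 203 Il6/Procr/Thbd cells deep enough, and 23.1% and 21.2% in other progenitors. RNA outside cells, read from barcodes of at most 50 UMIs, held Il6 at 286 and 230 UPM, above the level in other progenitors. How much of the Il6 counted in the other progenitors came from free RNA was not tested.

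Procr (chr2:155751117-155755471, plus strand) reached 319 and 275 UPM in WT and transgenic Il6/Procr/Thbd cells, and 38.4 and 36.0 UPM in other progenitors. It was 8.30-fold and 7.65-fold higher. Of the 4 genes it was the most unevenly spread, with 20.2% and 17.7% of its UMIs in the 5 richest cells of each library. A UMI of it was seen in 76.0% and 71.2% of the selected cells, or in 52.3% and 37.9% at 5000 UMIs. Thbd (chr2:148404466-148408188, minus strand) stood at 1208 and 1016 UPM against 243 and 184 UPM, which is 4.98-fold and 5.51-fold higher. It was found in 95.0% and 97.6% of the selected cells and also in 80.0% and 72.4% of the other progenitors. Adamts4 (chr1:171250421-171260637, plus strand) stood at 1786 and 2194 UPM against 286 and 340 UPM, which is 6.24-fold and 6.46-fold higher, and was found in 97.3% and 98.5% of the selected cells. In both libraries each of the 4 genes was higher in these cells than in each of the 5 other classes and in the progenitors of no class. The cells were selected on these genes, so this order was largely set by the rule. RNA outside cells held Procr at 101 and 104 UPM and Thbd at 341 and 337 UPM, above the other progenitors. Adamts4 stood there at 128 and 200 UPM, below them. The part of free RNA in the detection of these genes was not tested.

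**Figure D1:**
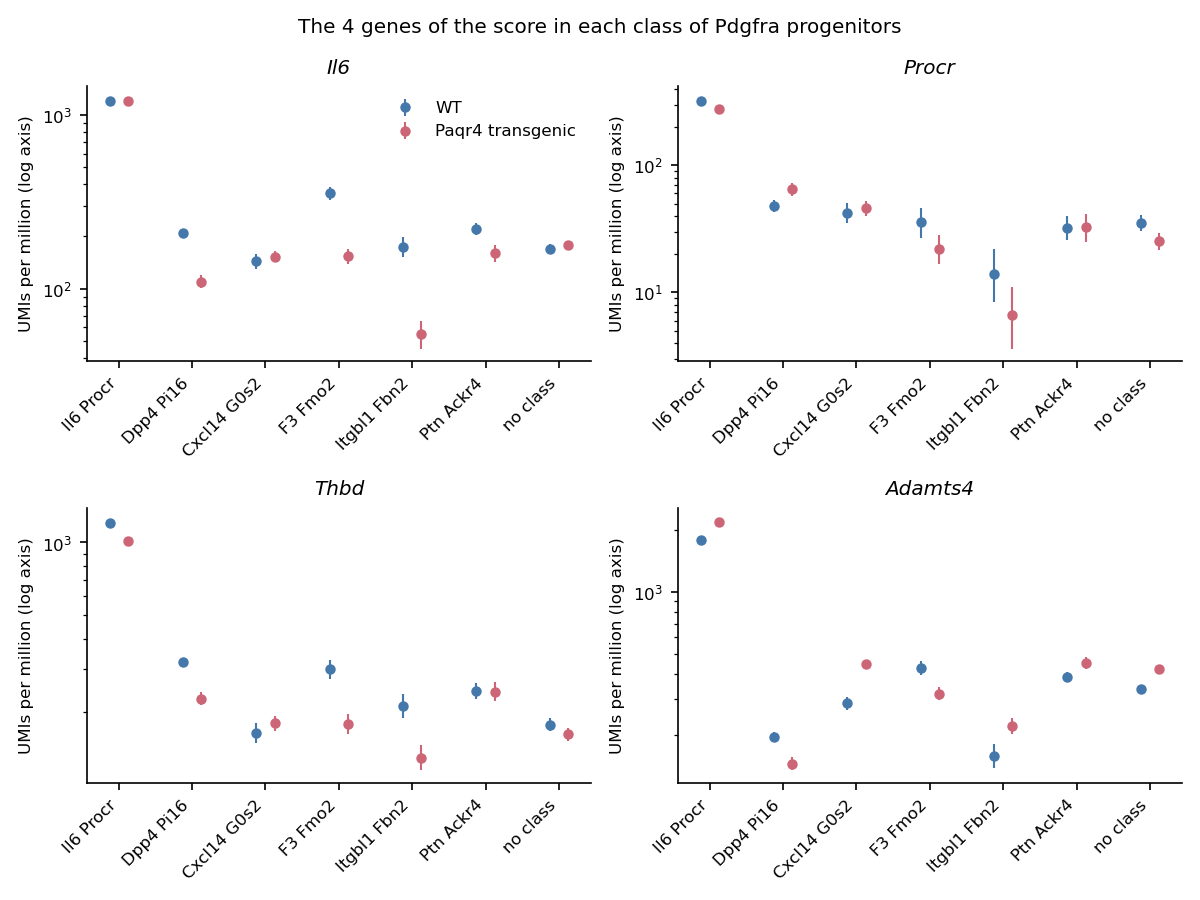
Level of each score gene (UPM, log axis) in the 7 classes of progenitors, named by the first genes of their scores, with Poisson 95% intervals. WT is blue and Paqr4 transgenic red. The Il6/Procr/Thbd cells, selected on these genes, stand highest in every panel; for Il6 the next level is 355 UPM, in the WT F3 Fmo2 class.

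The 4 genes were mostly found together. In WT, 137 of the 221 cells had a UMI of all 4 (62.0%, 55.2 to 68.4%). In the transgenic library, 124 of 205 did (60.5%, 53.4 to 67.2%). Exactly 3 were found in 34.8% and 37.1%, and 2 in 3.17% and 2.44%. Among other progenitors all 4 were found in 11.5% and 6.57%. The rule asks for a high mean over the 4 genes, so it favours cells that hold several of them.

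**Figure D2:**
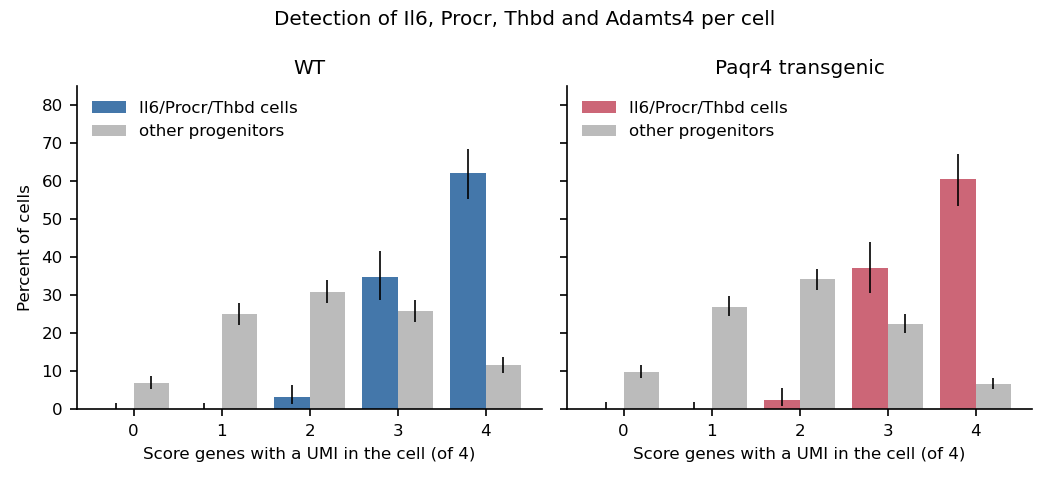
Percent of cells (vertical axis) by how many of the 4 score genes had at least 1 UMI (horizontal axis), with exact binomial 95% intervals. Coloured bars are Il6/Procr/Thbd cells, with 62.0% and 60.5% holding all 4, and grey bars are other progenitors, with 11.5% and 6.57%.

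Upstream sequences were available for Il6 and Procr and are shown because both genes define the cells. Those of Tfpi2 and Gbp5 are shown because both genes were among the 15 highest outside the score. Each run holds the 250 bases before the RefSeq transcription start (GRCm38.p6), 5′ to 3′ on the strand of the gene. Capitals mark matches on either strand to the NF-kB consensus, the AP-1 motif TGANTCA or the C/EBP motif TTNNGNAA.
Il6, chr5:30012864-30013113, plus strand: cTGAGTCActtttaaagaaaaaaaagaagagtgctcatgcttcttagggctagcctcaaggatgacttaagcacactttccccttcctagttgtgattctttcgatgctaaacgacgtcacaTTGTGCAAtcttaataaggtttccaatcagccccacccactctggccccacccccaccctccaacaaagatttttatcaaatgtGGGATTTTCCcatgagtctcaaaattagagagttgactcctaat
Procr, chr2:155750967-155751216, plus strand: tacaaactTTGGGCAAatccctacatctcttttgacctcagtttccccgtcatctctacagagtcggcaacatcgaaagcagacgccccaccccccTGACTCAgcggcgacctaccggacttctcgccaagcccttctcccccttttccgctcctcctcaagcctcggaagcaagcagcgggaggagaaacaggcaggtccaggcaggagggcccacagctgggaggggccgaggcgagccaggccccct
Tfpi2, chr6:3968376-3968625, minus strand: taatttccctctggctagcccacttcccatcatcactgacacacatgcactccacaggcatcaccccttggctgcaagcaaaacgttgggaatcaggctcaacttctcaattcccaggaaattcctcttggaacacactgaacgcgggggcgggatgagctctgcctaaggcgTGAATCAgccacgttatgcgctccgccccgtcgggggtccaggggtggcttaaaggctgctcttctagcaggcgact
Gbp5, chr3:142496684-142496933, plus strand: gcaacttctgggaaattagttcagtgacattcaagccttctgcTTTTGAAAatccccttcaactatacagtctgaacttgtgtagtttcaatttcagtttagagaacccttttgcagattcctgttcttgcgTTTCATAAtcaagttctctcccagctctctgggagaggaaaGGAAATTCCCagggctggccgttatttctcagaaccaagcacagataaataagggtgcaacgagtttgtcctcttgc
In Il6 the NF-kB match lay 44 to 35 bases before the start, the C/EBP match 128 to 121 and the AP-1 match 249 to 243 bases before it. Procr held an AP-1 match 154 to 148 bases and a C/EBP match 242 to 235 bases before the start. The Tfpi2 window, 1 of 3 of that gene, held an AP-1 match 77 to 71 bases before the start. Gbp5 held an NF-kB match 77 to 68 bases before the start, with 2 C/EBP matches. Of the 4 score genes and the 15 other highest genes, 13 were in the table, with 19 windows, some of which overlap. Thbd, Adamts4, Trib1, Eps8, Ccl7 and Kdm6b had none. AP-1 was matched in 7 of the 13 genes, against 7.82% of all 27025 genes in the table. The NF-kB consensus was matched in 3, against 4.46% of all genes. C/EBP was matched in 9, against 40.3%, and the CRE motif TGACGTCA in 0, against 1.77%. No motif is longer than 10 letters, and a match is a description of letters and not of a bound factor.

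Beyond the score genes, 93 of 3424 genes (2.72%) were at least 2-fold higher in Il6/Procr/Thbd cells than in other progenitors in both libraries, and 39 (1.14%) were at least 2-fold lower. These 3424 genes had 50 UPM or more in either cell group of each library, and the 24 score genes were left out. Across 3256 of them, without mitochondrial, haemoglobin, sex-linked and unnamed genes, the log2 ratio in WT and that in the transgenic library had the same sign in 2841 genes and a correlation of 0.90. Genes are not independent replicates, and each library had its own cells but the score was standardised over both. The median gene lay 0.13 log2 units below 0.

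The 15 highest genes included secreted and surface proteins. Tfpi2, a Kunitz-type inhibitor of plasmin and other serine proteases, led with 378 and 302 UPM in WT and transgenic Il6/Procr/Thbd cells, against 66.8 and 55.9 UPM, or 5.66-fold and 5.40-fold higher. It was present in 64.7% and 64.4% of the cells and 25.1% and 22.9% of its UMIs came from 5 cells. RNA outside cells held Tfpi2 at 127 and 98.0 UPM, above the other progenitors. The chemokine Ccl7, which draws monocytes through Ccr2, stood at 1321 and 1438 UPM against 419 and 412 UPM, 3.15-fold and 3.49-fold higher. Its level was next highest in the Dpp4 Pi16 class, at 703 and 682 UPM. Fgl2, a fibrinogen-like protein, stood at 170 and 235 UPM against 58.6 and 82.3 UPM. In WT it was higher in the F3 Fmo2 class, at 217 UPM. The other 14 genes were highest in the Il6/Procr/Thbd cells among all classes of both libraries.

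The cytokine receptor genes Il1r1 and Il15ra and the kinase gene Jak2 were also among the 15. Il1r1, the signalling receptor of interleukin-1, stood at 675 and 718 UPM against 199 and 206 UPM, 3.39-fold and 3.49-fold higher. Among the other classes its level ran up to 384 UPM, in the WT Cxcl14 G0s2 class. Il15ra, which presents interleukin-15, stood at 212 and 155 UPM against 57.4 and 43.2 UPM. Jak2, a kinase bound to cytokine receptors, stood at 537 and 365 UPM against 154 and 125 UPM, 3.50-fold and 2.92-fold higher.

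Regulators in the cell formed the rest. Trib1, a pseudokinase that steers the breakdown of C/EBP proteins, was 3.84-fold and 4.07-fold higher. Kdm6b, a histone H3K27 demethylase, was 2.86-fold and 3.02-fold higher and was seen in 98.2% and 98.0% of the cells. Tnfaip2, a gene induced by tumour necrosis factor, was 3.11-fold and 3.16-fold higher. The interferon-inducible genes Gbp5, Ifi203 and Ifit1 were 3.38-fold, 3.18-fold and 3.00-fold higher in WT, and 3.55-fold, 3.29-fold and 3.66-fold higher in the transgenic library. Ifi203 has close relatives whose reads may be split among them, and 63.6% of the transgenic Ifit1 UMIs came from 5 cells. Without the 5 richest Il6/Procr/Thbd cells, the log2 ratio of Ifit1 was 0.88 in WT and 0.46 in the transgenic library, under 2-fold. All other progenitors were kept, so leaving out these cells tends by itself to lower the ratio. Eps8, an actin-capping protein, was 3.67-fold and 4.18-fold higher. Mcoln2, an endolysosomal channel, was 3.71-fold and 5.01-fold higher. Acer3, an alkaline ceramidase, was 2.90-fold and 2.99-fold higher.

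**Figure D3:**
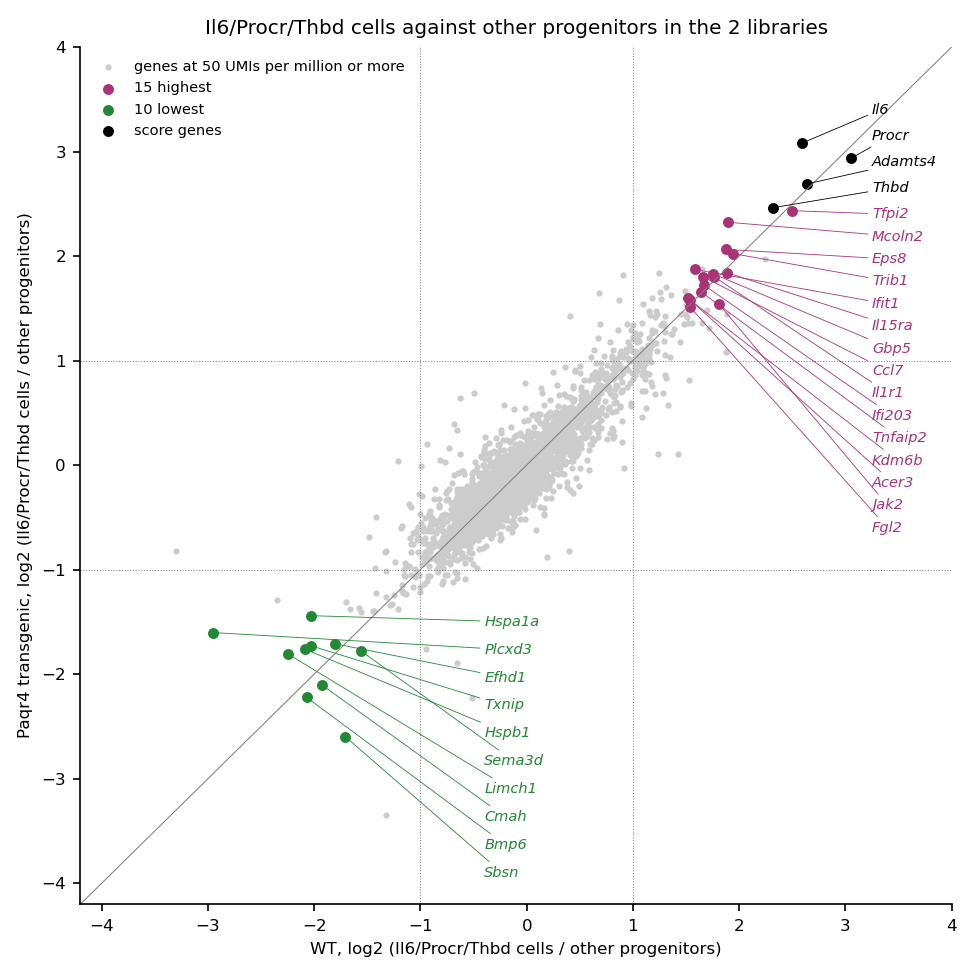
Log2 ratio of Il6/Procr/Thbd cells to other progenitors in WT (horizontal) and in the Paqr4 transgenic library (vertical) for 3424 genes, with the 4 score genes added. Dotted lines mark 2-fold; the 15 highest genes lie near the diagonal, with Tfpi2 at 2.50 and 2.43, and the 10 lowest lie more scattered, with Plcxd3 at -2.95 and -1.60.

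The 10 lowest genes included a growth factor, a marker of the Dpp4 pool and heat shock genes. Bmp6, a bone morphogenetic protein, stood at 16.4 and 14.6 UPM against 68.8 and 68.1 UPM, 4.20-fold and 4.67-fold lower. Efhd1, which was on the list of Dpp4 progenitor markers, was 3.49-fold and 3.27-fold lower. Bmp6, Efhd1, Cmah, Limch1 and Sbsn were highest in the Dpp4 Pi16 class in both libraries, with Bmp6 at 164 and 245 UPM there. Against the remaining classes they were not uniformly low: WT Sbsn stood at 15.8 UPM in the Il6/Procr/Thbd cells and at 8.21 to 16.8 UPM in the classes other than Dpp4 Pi16 and the cells of no class. Cmah, Limch1, Sbsn, Sema3d and Plcxd3 lay between 2.94-fold and 7.75-fold below the other progenitors. Plcxd3 rested on few cells, since 5 cells gave 78.0% of its WT UMIs. Txnip, an inhibitor of thioredoxin and of glucose uptake, was 4.08-fold and 3.32-fold lower. The chaperones Hspb1 and Hspa1a stood at 60.5 and 140 UPM in WT against 256 and 574 UPM, and at 142 and 277 UPM in the transgenic library against 483 and 752 UPM. Txnip, Hspb1 and Hspa1a were lower in the Il6/Procr/Thbd cells than in each other class of both libraries. Hspa1a and Hspa1b are nearly identical copies and their reads may be split between them.

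Gene lists were read at 10 UPM or more, where 127 of 8737 genes (1.45%) were 2-fold higher and 205 (2.35%) 2-fold lower in Il6/Procr/Thbd cells in both libraries. The median gene there lay 0.23 log2 units below 0 in WT and 0.24 in the transgenic library, and 1509 genes (17.3%) were higher and 5939 lower in both. List counts are read against these. Of 27 secreted cytokines and chemokines, Il6 among them, 13 others reached this level. Among these, 12 were higher in both libraries, 4 were 2-fold higher, and the list medians were 0.98 and 0.87. The 4 were Ccl7, Ccl11, Cxcl1 and Cxcl10. Ccl11, the eosinophil attractant eotaxin, stood at 2197 and 1841 UPM against 781 and 674 UPM. Cxcl1, a neutrophil attractant, stood at 2276 and 1714 UPM against 921 and 708 UPM and was found in 98.6% and 95.6% of the cells. Cxcl10, an interferon-induced attractant of T cells, stood at 487 and 276 UPM against 132 and 130 UPM, in 38.5% and 24.4% of the cells. Without its 5 richest Il6/Procr/Thbd cells, and with all other progenitors kept, the transgenic log2 ratio of Cxcl10 was 0.34. Csf1, the growth factor of macrophages, stood at 547 and 454 UPM against 278 and 263 UPM, 1.97-fold and 1.72-fold higher. Ccl2 stood at 787 and 806 UPM against 474 and 440 UPM. Its level was higher in the Dpp4 Pi16 class, at 904 and 1141 UPM. RNA outside cells held Ccl7 at 525 and 584 UPM, Cxcl1 at 1554 and 1192 UPM and Ccl2 at 656 and 622 UPM. These levels, and those of Cxcl10 at 211 and 143 UPM, lay above the other progenitors. Ccl11 stood there at 775 and 707 UPM, near them. The part of free RNA in these counts was not tested. Il33 was the measured gene with opposite directions, -0.68 in WT and 0.39 in the transgenic library. Il1b and Tnf, which activate NF-kB, had 0 and at most 6 UMIs per library in these cells.

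NF-kB genes showed the same direction throughout: 22 of 24 were measured, all 22 were higher in both libraries and 6 were 2-fold higher, with list medians of 0.77 and 0.87. The 6 were Nfkb1, Tnfaip2, Tnfaip3, Ptgs2, Sod2 and Cxcl1. The subunit gene Nfkb1 stood at 1711 and 1797 UPM against 842 and 747 UPM. Tnfaip3, the feedback inhibitor A20, was 1.14 log2 units higher in each library. Ptgs2, cyclooxygenase 2, stood at 235 and 265 UPM against 104 and 108 UPM. Its WT log2 ratio was 0.64 without its 5 richest Il6/Procr/Thbd cells, with all other progenitors kept. Sod2, the mitochondrial superoxide dismutase, stood at 261 and 230 UPM against 88.8 and 89.6 UPM. Nfkbia, the inhibitor that NF-kB itself induces, stood at 1118 and 1016 UPM against 713 and 560 UPM, under 2-fold in both.

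Of 18 genes of the IL-6 receptor family and the STAT3 pathway, 16 were measured, 15 were higher in both libraries and 4 were 2-fold higher, with medians of 0.55 and 0.76. The receptors ranged widely. Osmr, which binds oncostatin M, stood at 605 and 557 UPM against 258 and 262 UPM. The IL-6 receptor Il6ra was 0.78 and 0.69 log2 units higher, the shared transducer Il6st 0.42 and 0.51, and Lifr 0.10 and 0.13. Besides Osmr and Jak2, the STAT targets Pim1 and Cish were 2-fold higher in both. Pim1, a survival kinase, stood at 308 and 265 UPM against 150 and 117 UPM. The feedback inhibitor Socs3 stood at 1431 and 1306 UPM against 746 and 603 UPM, a log2 ratio of 0.94 and 1.11. Hp was the gene with opposite directions.

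Of 20 hyaluronan and proteoglycan genes, 12 were measured, 7 were higher in both libraries and 4 lower in both, with medians of 0.18 and 0.07. Tnfaip6, Ptx3 and Cd44 were 2-fold higher in both. Tnfaip6 (TSG-6), which links heavy chains to hyaluronan, stood at 9148 and 6809 UPM against 3821 and 2680 UPM. Ptx3, the pentraxin that cross-links that matrix, stood at 1199 and 708 UPM against 483 and 218 UPM. The level of Ptx3 was next highest in the Dpp4 Pi16 class, at 941 and 490 UPM, under 2-fold lower. The receptor Cd44 stood at 641 and 535 UPM against 288 and 257 UPM. The synthases Has1 and Has2 were 0.81 and 0.83 log2 units higher in WT, and 1.00 and 0.73 in the transgenic library. The small proteoglycan genes Dcn and Lum were at 0.04 and -0.07 in WT, and at 0.02 and -0.51 in the transgenic library. Among 20 measured genes of the ADAMTS, MMP and TIMP list, Adamts1 and the inhibitor Timp1 were 2-fold higher in both, and Adamts6, Adamts16, Adamtsl1 and Adamtsl4 were 2-fold lower. Adamts16 stood at 2.09 and 2.55 UPM against 54.1 and 40.2 UPM. Of 12 coagulation genes measured besides Procr, Thbd and F3, Tfpi2 was 2-fold higher in both, and the list medians were -0.17 and 0.36. The protein C gene Proc had 0 UMIs.

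**Figure D4:**
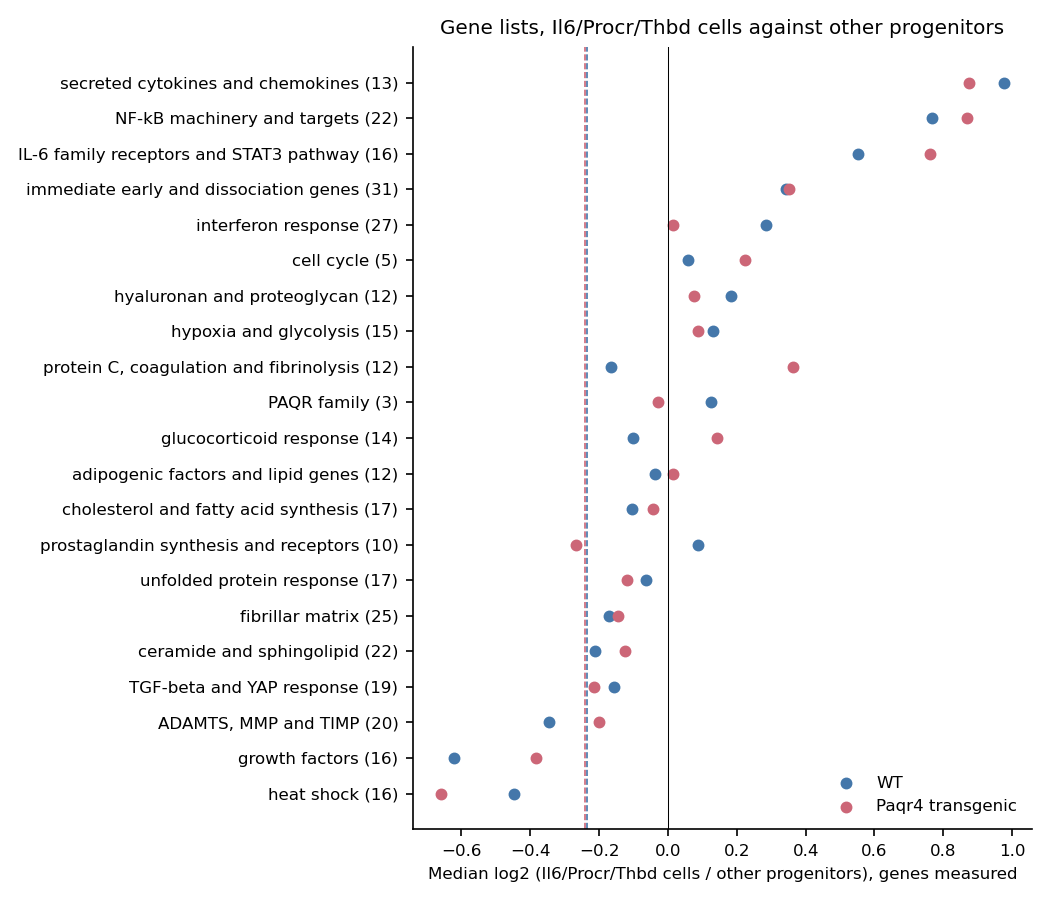
Median log2 ratio of Il6/Procr/Thbd cells to other progenitors (horizontal axis) for 21 gene lists, with the number of genes measured in parentheses; WT is blue and Paqr4 transgenic red, and dashed lines are the medians of all 8737 genes. Cytokines, NF-kB and IL-6/STAT3 genes lie farthest to the right, with heat shock and growth factors farthest to the left.

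Genes known to respond to tissue digestion were more often higher than lower in the Il6/Procr/Thbd cells. Of 31 immediate early and dissociation genes measured, 21 (67.7%) were higher in both libraries, against 17.3% of all genes. Another 7 were lower in both and 3 were 2-fold higher. The medians were 0.34 and 0.35, against -0.23 and -0.24 over all genes. The 3 were Fosl2, Myc and Ier5. Fos stood at 2035 and 2177 UPM against 3176 and 3046 UPM, and Jun at 1863 and 2003 UPM against 2492 and 2898 UPM, so both were lower in the Il6/Procr/Thbd cells. All 16 heat shock genes were measured, 14 were lower in both libraries and 4 were 2-fold lower, with medians of -0.45 and -0.66. The part of digestion in the cytokine levels was not tested.

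Of 14 glucocorticoid response genes, 6 were higher and 5 lower in both libraries, with medians of -0.10 and 0.14. The 3 that were 2-fold higher were the metallothioneins Mt1 and Mt2 and the glutamine synthetase gene Glul. Tsc22d3 was lower, with log2 ratios of -1.20 and -0.98 when cells were weighted equally, a measure unlike the summed UMIs of the other genes. By summed UMIs, 0 genes of this list were 2-fold lower in both libraries. Mt1 stood at 5430 and 3991 UPM against 1931 and 1258 UPM, with 3411 and 2779 UPM in RNA outside cells. Of 27 interferon response genes, 14 were higher in both libraries, 9 lower in both and 1, Ifit1, 2-fold higher, with medians of 0.29 and 0.01. Of 16 growth factors measured, 11 were lower in both, a share near that of all genes, and Bmp6, Pdgfc and Vegfc were 2-fold lower. Of 25 fibrillar matrix genes 15 were lower in both, also no larger a share than over all genes, and 0 passed 2-fold in either direction. Among 12 adipogenic and lipid genes measured, 6 were higher and 6 lower in both libraries, with medians of -0.04 and 0.01. Cebpb, a regulator of early adipogenesis, was the 1 that was 2-fold higher, at 404 and 333 UPM against 200 and 143 UPM. Of 22 ceramide and sphingolipid genes measured, 6 were higher and 11 lower in both, with medians of -0.21 and -0.13. Acer3 and Sphk1 were 2-fold higher. Sphk1, the sphingosine kinase, stood at 24.7 and 26.6 UPM against 11.1 and 10.5 UPM.

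Markers of other cell types were read beside these results. Of 13 leukocyte markers, 5 had 0 UMIs in the cells of both libraries, among them Ptprc (CD45), and the list summed to 7.99 and 14.1 UPM, against 7.89 and 6.86 UPM in other progenitors. Fcer1g gave most of that sum, at 5.71 and 11.1 UPM against 1.05 and 1.74 UPM. Of 12 endothelial markers, Tek gave 132 and 104 UPM, below the 207 and 162 UPM of other progenitors. Each of the others was below 5 UPM, with 5 and 4 UMIs of Pecam1, and the list summed to 137 and 112 UPM against 238 and 210 UPM. Of 10 mesothelial markers 5 had 0 UMIs, Msln and Upk3b among them, whereas Wt1 stood at 775 and 669 UPM against 425 and 326 UPM and gave nearly all of the sum. Wt1 is best known in fat from visceral rather than subcutaneous progenitors. It had a UMI in 92.8% and 88.3% of the Il6/Procr/Thbd cells and in 76.4% and 74.7% of other progenitors, although the labels name subcutaneous fat. Pdpn, a lymphatic marker that fibroblasts also express, gave nearly all of the 456 and 440 UPM of the lymphatic list, against 260 and 280 UPM. The Schwann, epithelial and pericyte lists summed to at most 18.6, 6.71 and 56.7 UPM. Haemoglobin took 0.928% and 0.860% of the UMIs of Il6/Procr/Thbd cells and 0.627% and 0.540% of those of other progenitors. Its part in the results was not tested. Of 10 fibro-inflammatory progenitor markers, all measured, 3 were higher in both libraries, Ccl2 and Cxcl10 among them. Another 6 were lower in both, no larger a share than the 5939 of 8737 over all genes. The medians of this list were -0.49 and -0.31, and it summed to 4544 and 4197 UPM against 5546 and 5255 UPM. All 13 pan-progenitor genes were measured, among them Pdgfra, which the rule requires. Of these, 4 were higher and 8 lower in both libraries, with medians of -0.17 and -0.14 and none 2-fold.

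Il6/Procr/Thbd cells were not uniform. The second highest score was that of the Dpp4 Pi16 class in 30 WT and 23 transgenic cells, and that of the Cxcl14 G0s2 class in 74 and 78. It was that of Ptn Ackr4 in 50 and 34, of F3 Fmo2 in 37 and 55, and of Itgbl1 Fbn2 in 30 and 15. Only the Dpp4 Pi16 and Cxcl14 G0s2 groups are compared here. Leaning to a class means only that its score came second. That score reached 0.5 in 16 and 4 of the Dpp4 Pi16 group, and in 13 and 31 of the Cxcl14 G0s2 group. Both hyaluronan synthases stood higher in the cells leaning to Dpp4 Pi16. Has1 stood at 1177 UPM (1103 to 1254) there against 527 UPM (493 to 562) in WT, and at 1438 UPM against 483 UPM in the transgenic library. Has2 stood at 583 UPM against 213 UPM, and at 310 UPM against 90.3 UPM. Ptx3 was 0.54 and 1.37 log2 units higher on that side. On the side leaning to Cxcl14 G0s2, Thbs1, an activator of TGF-beta, stood at 2352 UPM against 1208 UPM in WT and at 2087 UPM against 989 UPM in the transgenic library. Il1r1 was 1.79 and 0.93 log2 units higher there, and Cxcl10 was 0.97 and 1.92 higher. The score genes Il6 and Adamts4, on which the cells were selected, were also higher on that side, Il6 by 0.56 and 0.91 log2 units. Other genes went opposite ways in the libraries. The score genes Procr and Thbd were at -0.31 and -0.30 in WT, on the log2 scale of Dpp4 Pi16 over Cxcl14 G0s2, and at 0.41 and 0.32 in the transgenic library. Tfpi2 was at 1.23 and -0.68, Eps8 at 0.29 and -0.51 and Acer3 at 0.56 and -0.82. These groups are small, and the intervals do not cover the spread between cells.

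Paqr4, the gene of the transgene, had 29 UMIs in WT Il6/Procr/Thbd cells (5.52 UPM) and 37 in transgenic ones (8.57 UPM). The log2 ratio was 0.64, with a counting interval of -0.11 to 1.39. The score genes chose the cells of both libraries by 1 threshold, so their levels between genotypes are partly set by the rule: the log2 ratio of transgenic to WT was 0.00 for Il6 (-0.05 to 0.06), -0.21 for Procr, -0.25 for Thbd and 0.30 for Adamts4 (0.26 to 0.34). In other progenitors Il6 was lower in the transgenic library, at -0.48.

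Between genotypes, 33 of 3344 genes (0.987%) were at least 2-fold higher in transgenic than in WT Il6/Procr/Thbd cells and 22 (0.658%) at least 2-fold lower. A gene entered if it reached 50 UPM in either library, so one that entered through its higher library alone had to differ, and the counts are a description. Among the genes named below, C7, Serpine2, Sult1e1, Hsd11b1, S1pr3, Vav3, Adarb1 and Dchs2 entered through the transgenic cells alone. Nrxn3, Il4ra, Cdh11, Peg3, Fgf12, Adgrv1, Irgm1 and Ces1d entered through the WT cells alone. C7, a complement component made by fibroblasts, had the largest ratio. Its level was 6.66 UPM for WT, from 35 UMIs, and 215 UPM for the transgenic cells, 32.2-fold higher, and was seen in 7.24% and 46.8% of the cells. In other progenitors C7 stood at 65.5 and 379 UPM, 5.79-fold higher. RNA outside cells held C7 at 11.1 and 179 UPM, and 5 cells gave 37.2% of its UMIs in the transgenic Il6/Procr/Thbd cells. The part of free RNA in these C7 levels was not tested. Serpine2, an inhibitor of thrombin and plasminogen activators, stood at 12.9 and 88.5 UPM and was seen in 19.5% and 65.4% of the cells. Sult1e1, the oestrogen sulphotransferase, stood at 10.5 and 87.3 UPM, but all of its WT UMIs came from at most 5 cells. Hsd11b1, which regenerates active glucocorticoid, stood at 38.8 and 135 UPM. Aldh1a2, which makes retinoic acid, stood at 51.2 and 152 UPM. S1pr3, a sphingosine 1-phosphate receptor, stood at 22.1 and 69.0 UPM. Vav3, Adarb1, Hmcn2, Dchs2 and Hspb1 were also among the 12 highest, with log2 ratios between 1.24 and 1.95.

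Lower in the transgenic cells was first Nrxn3, a neurexin, with 262 and 29.6 UPM in WT and transgenic cells, 8.82-fold lower, and seen in 37.1% and 11.2% of the cells. Igfbp5, which binds insulin-like growth factors, stood at 257 and 55.3 UPM, 4.64-fold lower, against 367 and 259 UPM in other progenitors. Zbtb16, a transcription factor induced by glucocorticoid, stood at 750 and 220 UPM, and at 970 and 303 UPM in other progenitors. Il4ra, the receptor of interleukin-4 and interleukin-13, stood at 87.5 and 31.7 UPM. Cdh11, a cadherin of mesenchymal cells, stood at 111 and 44.5 UPM, and at 84.4 and 78.7 UPM in other progenitors. Postn, the matrix protein periostin, stood at 536 and 220 UPM. Rgs6, Peg3, Fgf12, Adgrv1, Irgm1 and Ces1d completed the 12, with log2 ratios between -1.99 and -1.15. Of the 12 highest, 11 had the same direction in other progenitors and 8 were 2-fold there; of the 12 lowest, 12 and 8. The 2 comparisons share the libraries.

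**Figure D5:**
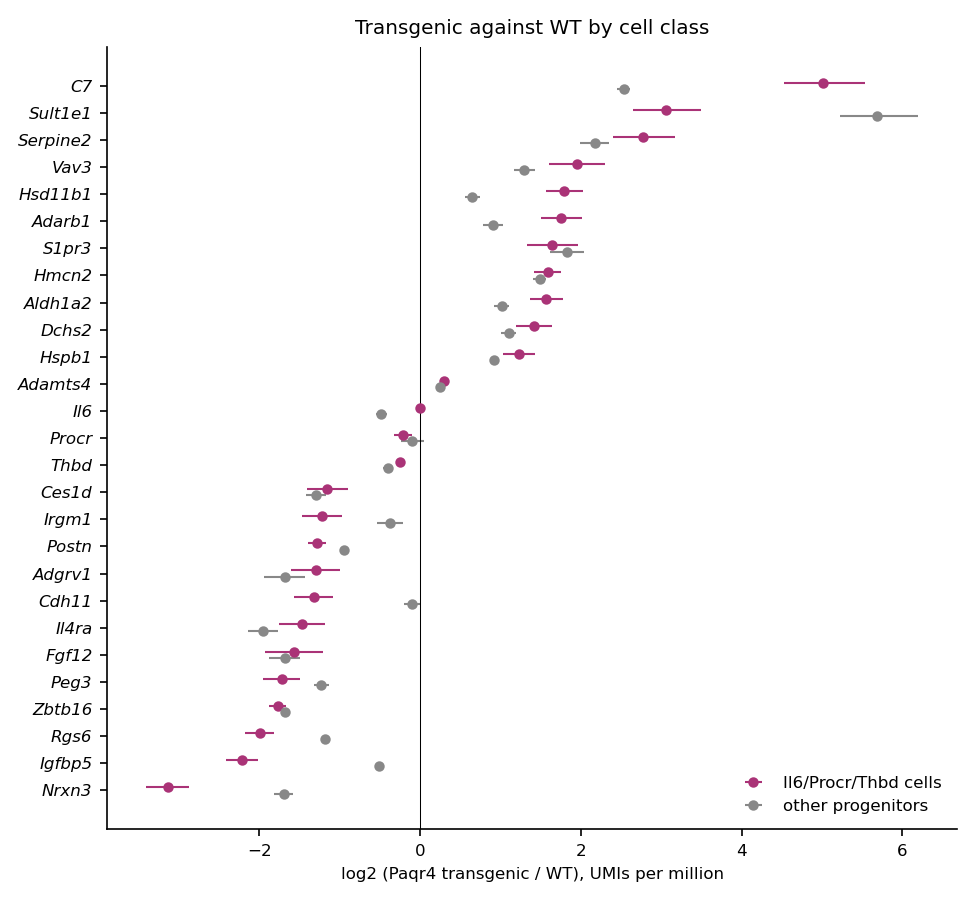
Log2 ratio of the Paqr4 transgenic to the WT library for 11 of the 12 highest and the 12 lowest genes in Il6/Procr/Thbd cells and the 4 score genes, with exact binomial 95% intervals. Purple is Il6/Procr/Thbd cells and grey is other progenitors; C7 lies at 5.01 and 2.53 and Nrxn3 at -3.14 and -1.70.

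At 10 UPM, 154 of 8737 genes (1.76%) were 2-fold higher and 95 (1.09%) 2-fold lower in transgenic than in WT Il6/Procr/Thbd cells. In all, 5187 were higher and 3550 lower in the transgenic cells. Among 17 measured genes of cholesterol and fatty acid synthesis, the transgenic cells were higher for 16 and 2-fold higher for 7, with a median of 0.88 here and 0.81 in other progenitors. Some of these entered through the transgenic cells: Sqle and Cyp51, enzymes of the sterol pathway, were at 5.71 and 8.75 UPM in WT, under 10 UPM, and at 18.1 and 25.2 UPM in the transgenic cells. Of 27 interferon response genes, 25 were lower in the transgenic cells and 4 of them 2-fold, with a median of -0.35 here and -0.07 in other progenitors. Irgm1, a GTPase of that response, stood at 95.9 and 41.2 UPM. Of the 13 cytokines and chemokines 9 were lower and 0 passed 2-fold, with Cxcl10 at -0.82, and of 22 NF-kB genes 11 were higher and 11 lower, none of them 2-fold by this count. Whether sex or genotype goes with any of these differences cannot be told apart.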

How the data were processed

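Droplet 3′ counts came from 2 libraries, 1 per genotype, so no test between genotypes was possible. The deposited matrices hold raw UMI counts per gene and barcode for all barcodes. Cell Ranger 7.0.0 and the build mm10 are listed in the submitters' processing notes, whereas the file headers carry another Cell Ranger version, and which of them counted the reads is not stated. The libraries summed to 44145257 and 43084906 UMIs, of which haemoglobin took 28.2% and 29.1%. Features sharing a symbol were summed, giving 32246 symbols. Counts of a class were summed and divided by its total (UPM). Poisson, Clopper-Pearson and conditional binomial 95% intervals were computed with Python 3.11.15, numpy 2.4.6, scipy 1.17.1 and pandas 2.3.3. A gene at 0 was set to a floor of 3 UMIs per class. Doublets were called with Scrublet in scanpy 1.11.5 and kept. The ratio code was tested on simulated counts.

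Genes named were the 4 score genes, the 15 highest and 10 lowest against other progenitors at 50 UPM, ranked by the library with the smaller ratio, the 12 highest and 12 lowest between genotypes with a UMI in 10% of cells, and examples from 37 gene lists. Further list members, such as Csf1, Ccl2, Nfkbia and Has1, were named after their values were seen, as were the C/EBP letters. The members and lists were chosen with earlier results of these data known. Alternatives changed the score threshold, the score genes, standardisation, doublets, depth, the UPM floor and the weighting of cells. Upstream sequences are from RefSeq (GRCm38.p6), and gene positions from GENCODE M21 (GRCm38). Some genes that met these rules are not reported here.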

Additional observations from a re-analysis of the deposited data

Results flagged for a closer look

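The log2 ratio of Il6/Procr/Thbd cells to other progenitors had the same sign in both libraries for 2841 of 3256 genes. Of the genes where it lay on opposite sides of 0, 7 are given here. They are not a full list: Nrxn3, for example, was at 1.18 in WT and -0.26 in the transgenic library. With 1 library per genotype the difference was not tested, and genotype and sex cannot be told apart. Hsd11b1 was at -0.94 in WT and 0.20 in the transgenic library. Aldh1a2 was at -0.35 and 0.21. Peg3 was at 0.18 and -0.31. Cdh11 was at 0.40 and -0.82.

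The other 3 genes rested on few cells. Hp, haptoglobin, was at -3.55 in WT, from 1 UMI with an interval of -8.89 to -1.01, and at 1.59 in the transgenic library, where 5 cells gave 71.6% of its UMIs. Mmp3, a matrix metalloproteinase, was at -2.07 and 0.97, with 88.2% and 67.7% of its UMIs in 5 cells. Rsad2, an antiviral interferon-response gene, was at 0.98 and -1.504, with 77.8% and 69.6% in 5 cells. The 5 Il6/Procr/Thbd cells richest in each gene were then left out, with all other progenitors kept. This pushes positive ratios down by itself, so no conclusion is drawn from a change of sign. The ratios no longer lay on opposite sides for Hsd11b1 (-1.26 and -0.0027), Hp (-1.94 and -0.19), Mmp3 (-5.13 and -0.62) and Rsad2 (-1.15 and -3.17). Aldh1a2 (-0.62 and 0.01), Peg3 (0.01 and -0.76) and Cdh11 (0.07 and -1.30) then had 1 library close to 0.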

How the results depend on the processing

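With 1 library per genotype, intervals carry no variation between mice. Shares of 19.5% in WT and 15.2% in transgenic became 10.8% and 8.83% at a threshold of 1, and 16.8% and 12.8% when the score had to lie 0.3 above the next. At a threshold of 0.3 there were 250 WT cells, a share of 22.01%, and 224 transgenic ones. Without Procr in the score there were 229 WT cells and 241 transgenic ones, a share of 17.9%. The transgenic share divided by the WT share was 0.78 in the main run and 0.85 when scores were standardised within each library. Across the settings that changed the cells it ran from 0.73 without Adamts4 to 0.89 without Procr. Genes 2-fold lower than in other progenitors numbered 39, against 95 at a floor of 20 UPM and 25 without Adamts4 in the score. Between genotypes, the 33 higher and 22 lower genes became 87 and 54 at a floor of 20 UPM, and 55 and 37 after thinning to 5000 UMIs. The cytokine median of 0.92 became 1.31 after thinning, and the immediate early median of 0.36 became 0.48 with cells weighted equally. Of 194 ratios of 2-fold or more among named genes, 194 kept their direction with cells weighted equally. Without the 5 Il6/Procr/Thbd cells richest in each gene, 189 did. All other progenitors were kept there, which tends by itself to lower the ratios against them. The 5 that turned were Sult1e1 (WT, 2.57 to -1.59), Hp (transgenic, 1.59 to -0.19), Tnc (transgenic, 2.85 to -0.28) and Ccnd1 (transgenic, 1.28 to -1.01) against other progenitors, and Sema3e between genotypes (-1.16 to 2.51). Smaller ratios turned too, such as Rsad2 in WT (0.98 to -1.15) and Mmp3 in the transgenic library (0.97 to -0.62). Apart from the cells left out, the cause was not tested. No paired analysis was possible because each genotype has 1 library.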
